A study of Mus musculus with 12 samples.

Results

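Alveolar macrophages, the resident phagocytes of the air spaces, were compared between Vdr knockout and wild-type mice at 10 weeks of age. The comparison holds 4 of the 12 RNA-seq libraries of the series, chosen by their age, source name and genotype label. There were 2 libraries of fresh wild-type cells and 2 of fresh cells labelled VDR knockout, all obtained by lavage and not cultured. The other libraries were 4 of fresh cells from 4-week-old mice, 2 of each genotype, and 4 of cultured wild-type cells, kept 24 h with 50 nM vitamin D3 or without it. At 10 weeks, each genotype had 1 library whose title number begins with D14-10 (replicate 1) and 1 whose title begins with D14-58 (replicate 2), and this title series was the block of the comparison. The sources used here do not give the strain, the way the gene was disrupted, the number of mice behind a library or whether libraries came from separate mice. P-values therefore measure only how far libraries spread, and some of that spread may be technical. All 12 libraries entered 1 fit, so the 4-week and cultured groups supply part of the spread behind each 10-week p-value.

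VDR, the vitamin D receptor, is a nuclear receptor that binds the hormonal form of vitamin D. It pairs with a retinoid X receptor (RXR) on DNA and switches on genes such as Cyp24a1, whose product degrades the hormone. Retinoid X receptors are shared with other nuclear receptors, among them the liver X receptors (LXRs), which sense oxidised cholesterol. Alveolar macrophages clear surfactant lipid and inhaled particles, and they depend on lipid-handling nuclear receptors for that work.

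Levels are given as CPM, counts scaled to the TMM-adjusted size of the library. Values of the 4 libraries are given in the order wild type D14-10, wild type D14-58, labelled knockout D14-10, labelled knockout D14-58, unless named otherwise. A difference is the log2 ratio of labelled knockout to wild type with its standard error (SE), from edgeR's quasi-likelihood test with Benjamini-Hochberg adjustment over 12748 genes. A gene is said to have risen or fallen where the adjusted p was under 0.05.

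The 4 libraries held 19122812, 11630426, 19503047 and 10409572 counts, so that 1 count was worth at most 0.0904 CPM. Xist, which silences an X chromosome in females, had levels of 0.689 and 0.926 CPM in the D14-10 libraries against 800.3 and 787.3 CPM in the D14-58 libraries. Ddx3y, a gene of the Y chromosome, was at 80.6 and 94.7 CPM in the D14-10 libraries and at 0.475 and 0 CPM in the D14-58 libraries. Each genotype thus had a male D14-10 and a female D14-58 library by these transcripts, and series and sex cannot be told apart at 10 weeks. The libraries of a group therefore did not come from 1 and the same animal, and chi-square values per degree of freedom of 14.4 in wild type and 19.4 in the other group put their counts apart beyond sampling noise. Alveolar macrophage markers were abundant in all 4 libraries, with a summed level over 23 listed genes of 36148, 34949, 41290 and 44424 CPM. Of 22 tested alveolar macrophage markers, 0 passed the threshold with edgeR (8 had an unadjusted p under 0.05) and 1 fell with DESeq2, and the median difference was 0.07 on the log2 scale.

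Vdr, the targeted gene, was at 79.6 CPM in wild type D14-10 and 126.9 CPM in wild type D14-58. It was at 84.2 CPM in the labelled knockout D14-10 library and 45.0 CPM in the labelled knockout D14-58 library. The groups overlapped, because the D14-10 library labelled knockout held as much Vdr as its wild-type partner. The difference was -0.68 ± 0.30 (SE) on the log2 scale (edgeR adjusted p = 0.402), made up of 0.08 in the D14-10 pair and -1.49 in the D14-58 pair. In the D14-58 pair alone the adjusted p was 0.0208 with edgeR. A fit with a single pair has 1 library per genotype at 10 weeks, so its spread comes from the 4-week and cultured groups alone and the lone libraries are assumed to vary like those; this holds for each single-pair value that follows. The exons removed are not named in those sources either, so whole-gene counts are only a partial check of the labels.

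The short description codes of 2 libraries go against their genotype labels: that of the labelled knockout D14-10 library names wild type, and that of the wild-type D14-58 library names knockout. In the authors' deposited log2 table, the group means by column name equalled those of the genotype labels to within 4.26e-14, and differed from those of the description codes by up to 1.28. Among all 23413 genes, 1 gene separated the 8 fresh libraries by genotype label with a gap of at least 4-fold, and 0 did so by description code, in a check chosen after seeing the data. That gene was the predicted gene Gm6682, whose 10-week levels were 0 and 0.237 CPM in wild type against 20.1 and 10.1 CPM in the labelled knockout group. Its 4-week levels were 0.14 and 0 CPM against 28.7 and 28.3 CPM. Genotypes are given as the genotype label states them, and the group is called "labelled knockout" throughout.

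At 10 weeks, 91 of 12748 genes passed the threshold (0.714%). Of these, 56 were higher in the libraries labelled knockout (0.439%) and 35 lower (0.275%), and 24 and 15 of them differed by more than 2-fold. Those that rose included the secreted protein genes Fstl1, C4b, Hp and Lrg1, the lung epithelial genes Ager and Clic5, and the clock gene Per2. Those that fell included the chaperone genes Hspa1a and Hspa1b, the cholesterol transport genes Abca1 and Apoe, and the desaturase genes Scd1 and Scd2. All 91 had the same sign in both pairs, as had 58.2% of all genes tested. The libraries of the genotypes did not overlap for 90 of the 91, against 40.6% of all genes tested. The fit calls genes whose differences are large and alike in both pairs, so neither count is separate support for the calls. The smallest difference among them was 0.45 on the log2 scale. Over all genes, 48.3% had a higher value in the libraries labelled knockout, and 1533 of the 12748 had an unadjusted p under 0.05.

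The count of changed genes rested on the block. Without the title series in the fit, 14 genes passed (0.110%), and all 14 were among the 91. With the block and only the 4 libraries at 10 weeks, 40 genes passed, 29 of them among the 91. Without the block and with 1 library left out, 1 gene passed without wild type D14-10, 1 without wild type D14-58, 71 without the labelled knockout D14-10 library and 5 without the labelled knockout D14-58 library. Of these, 0, 1, 25 and 5 were among the 91. With the block and a single pair, 45 genes passed for the D14-10 pair and 122 for the D14-58 pair, of which 25 and 31 were among the 91. Of 34 named genes past the threshold, 8 were past it with either pair alone, on the spread of the other groups: Fstl1, Per2, Hpgds, Hspa1a, Hspa1b, Scd1, Myo5a and Dnaja1. Leaving out single libraries without the block, 0 of the 34 passed each of the 4 times.

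**Figure D1:**
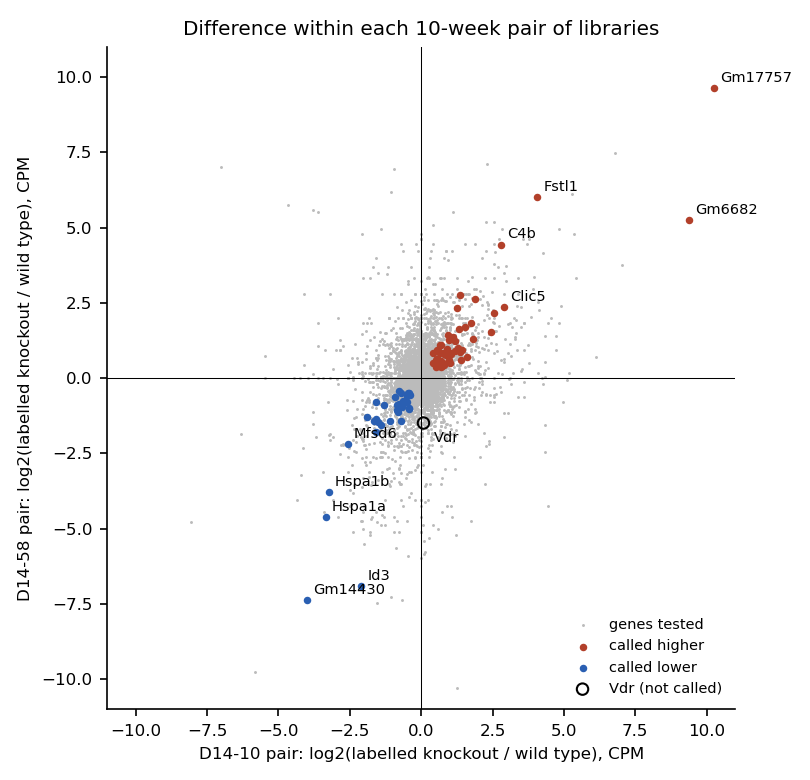
The log2 ratio of labelled knockout to wild type in CPM is shown for each of 12748 tested genes (grey points), in the D14-10 pair on the x axis and the D14-58 pair on the y axis. The 56 genes called higher (red) and the 35 called lower (blue) lie in the quadrants where both pairs have the same sign, and Vdr (open circle) lies at 0.08 and -1.49.

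**Figure D2:**
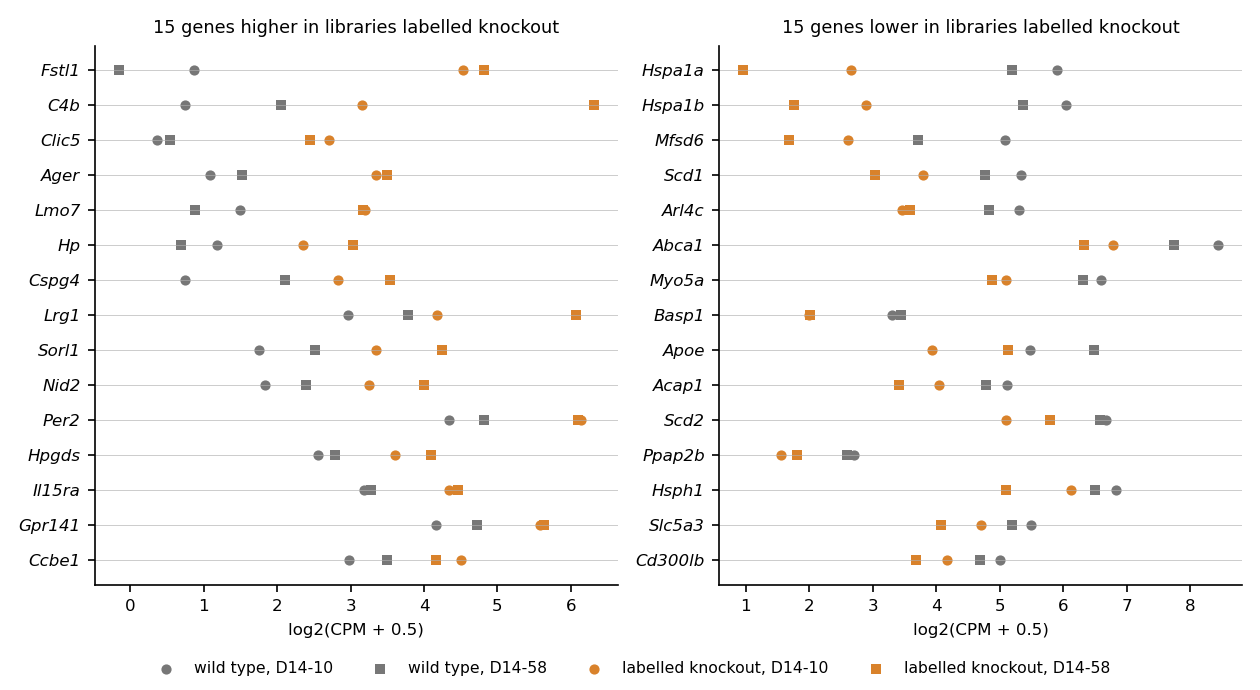
The level of 30 named genes is plotted as log2(CPM + 0.5), 15 that rose on the left and 15 that fell on the right, with 1 point per library (grey for wild type, orange for labelled knockout, circles for D14-10 and squares for D14-58). In each row the orange points lie on 1 side of the grey ones.

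Genes of cholesterol export and fatty acid desaturation were lower in the 10-week libraries labelled knockout. Of 12 tested genes of the LXR and cholesterol efflux list, 5 fell (Scd1, Arl4c, Abca1, Apoe and Scd2) and 0 rose, where 0.714% of all genes changed, and 9 of the 12 values were lower and 3 higher. Without the block 2 of the 12 passed, Arl4c and Scd2. This and the other gene lists were chosen with earlier results of these data known. A list's share of calls beside that of all genes is therefore only a description. The median difference of the list was -0.48, against -0.01 over all genes, and it was -0.75 in the D14-10 pair and -0.20 in the D14-58 pair. Abca1, the transporter that loads cholesterol onto apolipoproteins, was at 347.4, 214.2, 109.5 and 79.8 CPM. Both libraries labelled knockout were below both wild-type ones, and the difference was -1.55 ± 0.27 (edgeR adjusted p = 0.0297). Apoe, an apolipoprotein that takes up exported cholesterol, was at 44.1, 88.8, 14.8 and 34.6 CPM, with a difference of -1.47 ± 0.27 (edgeR adjusted p = 0.0388). Apoe was higher in the D14-58 library of each genotype, and the fall was of like size within the pairs, at -1.58 and -1.36.

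The promoter of Abca1 is shown because it holds a repeat of the kind bound by LXR and RXR. The search was for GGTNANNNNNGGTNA on both strands, which stands for a direct repeat with 4 spacer bases, in windows from 250 bases before to 50 after each start listed by RefSeq (GRCm38.p6). It matched in 0.603% of the promoters of tested genes, and in 2 of the 8 genes of the list that had a promoter entry, Abca1 and Srebf1. Capitals mark the match, on the reverse strand of the sequence shown, 67 to 53 bases before the start (chr4:53159928-53159982, minus strand).
Abca1: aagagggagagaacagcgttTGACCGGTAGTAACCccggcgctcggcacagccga

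The desaturases Scd1 and Scd2 put a double bond into saturated fatty acids. Scd1 was at 39.8, 26.7, 13.3 and 7.68 CPM, a difference of -1.67 ± 0.19 (edgeR adjusted p = 0.00346). Scd2 was at 101.6, 95.2, 33.8 and 54.8 CPM, a difference of -1.20 ± 0.17 (edgeR adjusted p = 0.00843). For both genes every library labelled knockout was below every wild-type one. Arl4c, a small GTPase gene induced by LXR in macrophages, was at 39.0, 28.0, 10.5 and 11.5 CPM, a difference of -1.60 ± 0.21 (edgeR adjusted p = 0.00638). Of the other listed members, Mylip, which marks the LDL receptor for degradation, was at 65.2, 57.1, 28.1 and 49.2 CPM and did not pass (-0.72 ± 0.23, edgeR adjusted p = 0.205). Abcg1, the second cholesterol exporter of macrophages, was at 2719, 2327, 2242 and 2050 CPM (-0.23 ± 0.10, edgeR adjusted p = 0.403). The receptors themselves, Nr1h3 (LXR alpha) and Nr1h2 (LXR beta), had overlapping groups, with differences of 0.18 ± 0.16 and 0.04 ± 0.09. Abcg4, a transporter related to Abcg1, was at 0.689, 1.58, 1.85 and 2.89 CPM, with both libraries labelled knockout higher (1.14 ± 0.74, edgeR adjusted p = 0.595). Arl4c and Scd2 passed with the D14-10 pair alone but not with the D14-58 pair (edgeR adjusted p = 0.0821 and 0.0536), and Abca1 and Apoe passed with neither.

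Fatty acid synthesis beyond the desaturases held no further call. Of 16 tested genes of fatty acid synthesis and desaturation, 2 fell, both of them the desaturases above, and the median difference was -0.16. Fasn, the fatty acid synthase, was at 95.4, 108.4, 105.2 and 116.7 CPM, with overlapping groups. Other lipid genes that changed were Angptl4, an inhibitor of lipoprotein lipase, which fell by 0.72 on the log2 scale, and Ppap2b, a lipid phosphate phosphatase. Ppap2b was at 6.01, 5.54, 2.44 and 2.98 CPM, a difference of -1.13 ± 0.21 (edgeR adjusted p = 0.0376). Hpgds, the prostaglandin D synthase of blood-derived cells, was at 5.37, 6.41, 11.7 and 16.6 CPM and rose by 1.24 ± 0.14 (edgeR adjusted p = 0.00346).

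Heat shock genes formed the other group with several members that fell. These genes encode chaperones and their partners, which refold damaged protein and are switched on by heat shock factor (HSF1) through repeats of the unit NGAAN. Of 25 tested members, 6 fell and 0 rose, where 0.275% of all genes fell. Lower values were seen for 22 of the 25, and the median difference was -0.43 against -0.01 over all genes. The median was -0.27 in the D14-10 pair and -0.63 in the D14-58 pair. For 18 of the 25 every library labelled knockout was below both wild-type ones, as for 20.9% of all genes tested, and 18 had an unadjusted p under 0.05.

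Promoter stretches of 5 of the 6 chaperone genes that fell are shown because they hold facing units of the kind found in heat shock factor sites. The motif GAANNTTC, a pair of facing units that reads the same on both strands, matched in 7.16% of the promoters of 9456 tested genes. It matched in 11 of the 19 heat shock genes with a promoter entry (57.9%). Among all genes that fell it matched in 7 of 26 (26.9%), and among those that rose in 4 of 35 (11.4%). Of the 7 that fell, 5 are the chaperone genes shown here, already counted above, and the others are Cish and Jun. The longer GAANNTTCNNGAA, which contains it, was searched on both strands and matched in 0.603% of all and in 4 of the 19 heat shock genes. Of the 5 genes shown only Hsph1 and Chordc1 hold the longer motif, while Hspa1a, Hspa1b and Dnaja1 hold only the pair. In Hsph1 it lies 16 to 28 or 37 to 49 bases after the start, depending on which of 2 listed starts is used. In Chordc1 the matches span the start. Sequences are RefSeq GRCm38.p6, 5′ to 3′ on the gene's strand, with the match in capitals. That of Hspa1a lies at chr17:34972233-34972280 and that of Hspa1b at chr17:34959315-34959362 (both minus strand), that of Dnaja1 at chr4:40722324-40722371 (plus), that of Hsph1 at chr5:149636280-149636308 (minus) and that of Chordc1 at chr9:18292260-18292288 (plus), where 3 matches overlap.
Hspa1a: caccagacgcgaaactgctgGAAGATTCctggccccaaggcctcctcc
Hspa1b: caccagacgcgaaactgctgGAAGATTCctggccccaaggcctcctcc
Dnaja1: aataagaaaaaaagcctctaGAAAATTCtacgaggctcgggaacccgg
Hsph1: gctgcagaTTCTGGAAAGTTCtcctcagt
Chordc1: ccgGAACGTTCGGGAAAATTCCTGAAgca
The stretches of Hspa1a and Hspa1b shown are the same, and the 250 bases before their starts were identical at 247 positions. A match is a description of the letters and was not tested as a binding site.

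Hspa1a and Hspa1b encode the inducible 70-kilodalton chaperone and are near-identical copies, so the division of reads between them is uncertain. Hspa1a was at 59.4, 36.2, 5.80 and 1.45 CPM, a difference of -3.78 ± 0.34 (edgeR adjusted p = 0.000722). Hspa1b was at 65.8, 40.8, 6.97 and 2.89 CPM, a difference of -3.46 ± 0.27 (edgeR adjusted p = 0.000311). Both libraries labelled knockout were far below both wild-type ones, and each gene passed with either pair alone. The cochaperone Dnaja1 was at 230.0, 170.8, 127.2 and 92.4 CPM and fell by 0.87 on the log2 scale (SE 0.10, edgeR adjusted p = 0.00346). Dnajb1, the cochaperone of inducible Hsp70, was at 59.1, 53.0, 31.3 and 34.3 CPM (-0.78 ± 0.11, edgeR adjusted p = 0.00817). Hsph1, a large Hsp70 relative that exchanges its nucleotide, was at 113.4, 90.1, 69.3 and 33.7 CPM (-1.04 ± 0.18, edgeR adjusted p = 0.0297). Chordc1, a partner of Hsp90, was at 81.0, 63.2, 50.8 and 32.4 CPM (-0.81 ± 0.11, edgeR adjusted p = 0.00814). Hsph1 and Chordc1 passed with the D14-58 pair alone and not with the D14-10 pair (edgeR adjusted p = 0.24 and 0.0924).

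Abundant chaperones had smaller differences in the same direction that did not pass. Hspa8, the constitutive member of the Hsp70 family, was at 3137, 3404, 2457 and 1993 CPM (-0.56 ± 0.12, edgeR adjusted p = 0.0669). Hsp90ab1 was at 1466, 1418, 1184 and 829 CPM (-0.54 ± 0.11, edgeR adjusted p = 0.05002, just above the threshold). Hsf1, the heat shock factor, was at 38.8, 42.6, 36.6 and 29.6 CPM (-0.29 ± 0.12, edgeR adjusted p = 0.364). The 17 genes of the unfolded protein response, the stress program of the endoplasmic reticulum, held 0 past the threshold and 0 with an unadjusted p under 0.05, with a median of -0.07. Without the block 0 of the 6 chaperone genes passed, with an edgeR adjusted p of 0.0791 for Hspa1a and 0.0789 for Hspa1b, and with DESeq2 and the block 10 members of the list fell.

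**Figure D3:**
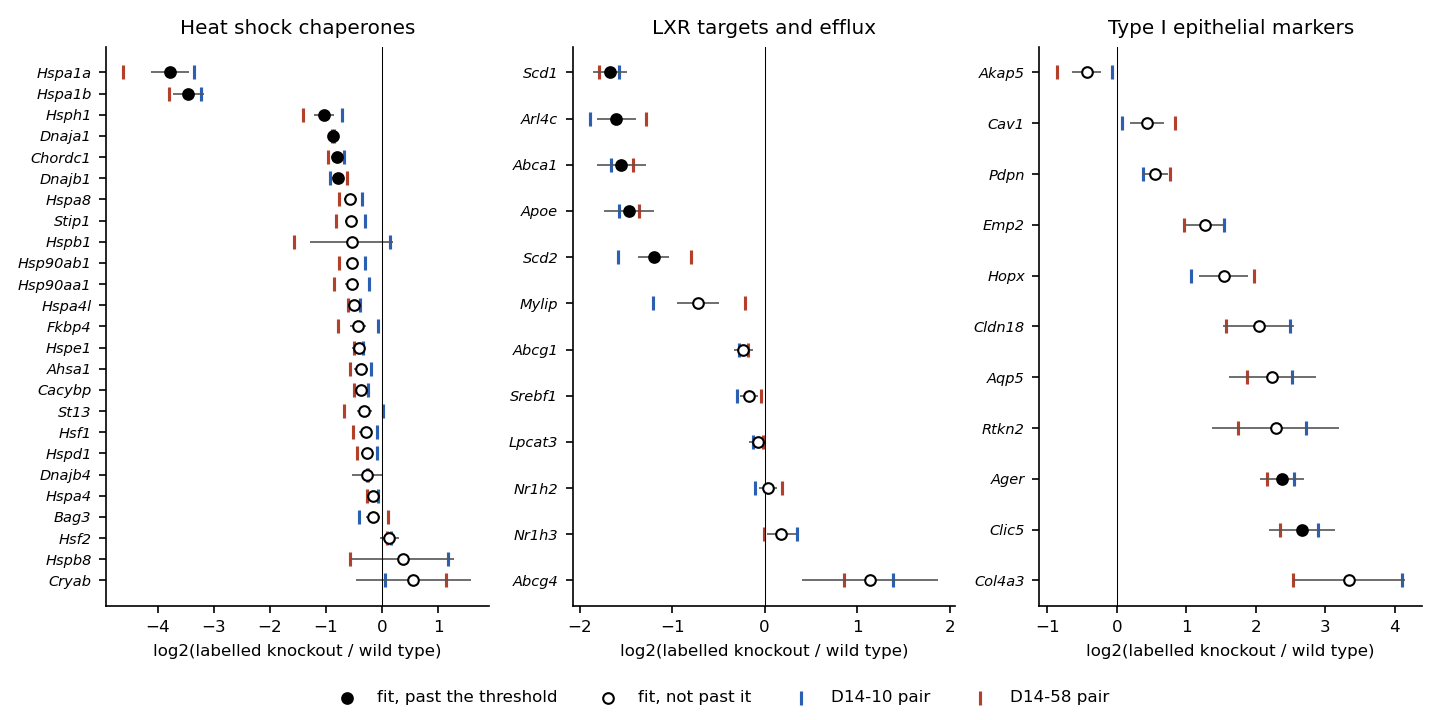
The log2 ratio of labelled knockout to wild type is shown for every tested member of the heat shock list, the LXR and efflux list and the type I epithelial list, as the fitted value with its SE (circles, filled where past the threshold) and the value within each pair (blue ticks for D14-10, red for D14-58). Hspa1a and Hspa1b lie far below the other chaperones, and 10 of the 11 type I epithelial markers lie above 0.

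Markers of type I alveolar epithelium, the thin cells that line most of the gas exchange surface, were higher in the libraries labelled knockout. Of 11 tested markers, 2 rose (Ager and Clic5), where 0.439% of all genes rose, 10 had higher values, and the median difference was 2.04. For 10 of them both libraries labelled knockout were above both wild-type ones, as for 19.7% of all genes tested. Ager, the receptor for advanced glycation end products, was at 1.62, 2.37, 9.70 and 10.8 CPM (2.38 ± 0.32, edgeR adjusted p = 0.00766). Clic5, a chloride channel protein of the cell cortex, was at 0.788, 0.950, 6.05 and 4.97 CPM (2.67 ± 0.47, edgeR adjusted p = 0.0321). Emp2 was at 3.54, 4.51, 10.4 and 8.86 CPM (1.27 ± 0.28, edgeR adjusted p = 0.0683) and the transcriptional cofactor gene Hopx at 1.97, 3.09, 4.14 and 12.2 CPM (1.54 ± 0.35, edgeR adjusted p = 0.0778). Ager and Clic5 passed with neither pair alone, with edgeR adjusted p of 0.0591 to 0.233, and with DESeq2 4 markers rose. The summed level of all 12 listed markers was 116 and 93.8 CPM in wild type and 155 and 146 CPM in those labelled knockout, and 0 of them were at 0 in all 4 libraries. Most of that sum was Cav1, at 49.2, 32.3, 51.6 and 57.7 CPM, and Akap5, at 44.0, 36.7, 42.0 and 20.2 CPM. Neither passed (edgeR adjusted p = 0.535 and 0.448), and Akap5 was the 1 tested marker with a lower value (-0.44 ± 0.21). These were bulk libraries, so more cells of a type and more RNA per cell cannot be told apart. The part of epithelial RNA in the result was not tested.

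Other epithelial lists differed from this. Of 11 type II markers, which mark surfactant-making cells, 0 passed, and the median was 1.88 in the D14-10 pair and -0.11 in the D14-58 pair. Sftpb, a surfactant protein gene, was at 2.12, 5.22, 14.8 and 7.86 CPM, with the highest value in the labelled knockout D14-10 library. Their summed level was 2465, 2062, 2226 and 1902 CPM, carried mostly by Lyz1, which macrophages also express. Of 13 airway markers, 0 passed. Scgb1a1, the secretoglobin of club cells, was at 29.8, 30.5, 171.4 and 144.5 CPM, with both libraries labelled knockout above both wild-type ones (2.39 ± 0.69, edgeR adjusted p = 0.162). The basal cell gene Krt5 was at 0 in all 4 libraries. Tppp3 was at 153.6, 194.7, 185.2 and 203.0 CPM and Epcam at 133.6, 159.2, 156.8 and 112.9 CPM, both with overlapping groups. With an unadjusted p under 0.05 there were 2 type II and 5 airway markers, and with DESeq2 0 and 1 passed.

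Lymphoid and dendritic cell markers had lower values in the libraries labelled knockout, and none of them passed. Of 14 tested T cell markers, 13 had lower values, with a median difference of -2.18, and their summed level was 253, 274, 243 and 211 CPM, most of it Cd2. The T cell receptor signalling gene Cd3e was at 0.591, 1.35, 0.146 and 0.271 CPM, and the interleukin 7 receptor gene Il7r at 3.59, 7.52, 0.829 and 1.17 CPM (-2.38 ± 0.58, edgeR adjusted p = 0.0941). Of 15 dendritic cell markers, 13 had lower values, with a median of -1.43 and a summed level of 219, 232, 129 and 165 CPM. Ccl22, a chemokine of mature dendritic cells, was at 24.6, 30.8, 11.6 and 8.59 CPM (-1.43 ± 0.42, edgeR adjusted p = 0.177). The integrin gene Itgae was at 6.99, 5.14, 1.80 and 1.72 CPM (-1.78 ± 0.43, edgeR adjusted p = 0.0919), and the migration genes Fscn1 and Ccr7 had differences of -1.45 ± 0.43 and -1.54 ± 0.50. An unadjusted p under 0.05 was reached by 5 of the T cell and 9 of the dendritic cell markers, and 1 of each passed with DESeq2. The part of these cells in the results on other genes was not tested. Of the B cell and NK cell markers, Pax5, Ebf1 and Klra8 were at 0 in all 4 libraries, and so were the eosinophil and basophil genes Prg2, Epx, Ccr3, Mcpt8 and Fcer1a. Neutrophil markers summed to 110, 126, 136 and 126 CPM with 0 of 8 past the threshold with edgeR (3 at an unadjusted p under 0.05) and 1 lower with DESeq2, and erythroid transcripts to 220, 124, 108 and 132 CPM with 0 of 10 past it with either tool (2 at an unadjusted p under 0.05).

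Interferon-stimulated genes, which encode antiviral effectors, had lower values without a call. Of 24 tested members, 20 had lower values and 0 passed, with a median of -0.51, and for 19 the libraries labelled knockout were both below wild type, as for 20.9% of all genes tested. Mx1, an antiviral GTPase gene, was at 2.07, 2.77, 0.341 and 0.181 CPM (-3.08 ± 0.76, edgeR adjusted p = 0.0975). Rsad2, which encodes viperin, was at 1.62, 1.82, 0.488 and 0.271 CPM (-2.11 ± 0.62, edgeR adjusted p = 0.169). Oasl1 was at 1.43, 1.11, 0.0488 and 0.0904 CPM, which is 1 count in each library labelled knockout. More abundant members differed less, such as Oas1a at 19.3, 24.2, 17.2 and 11.7 CPM (-0.57 ± 0.19, edgeR adjusted p = 0.237). Of 17 chemokines, 11 had lower values and 0 passed, with a median of -0.51. Ccl5, a chemokine for T cells, was at 2.41, 2.30, 0.585 and 0.0904 CPM (-2.75 ± 0.74, edgeR adjusted p = 0.125). An unadjusted p under 0.05 was reached by 10 of the interferon-stimulated genes and 4 of the chemokines. Of 11 inflammatory cytokines 0 passed, with a median of -0.15. Of 11 genes of MHC class II presentation, 10 had higher values and 0 passed, with a median of 0.38.

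Several genes of secreted proteins rose. Fstl1, which encodes a follistatin-like glycoprotein, was at 1.33, 0.396, 22.7 and 27.7 CPM (4.69 ± 0.34, edgeR adjusted p = 0.000311), and both libraries labelled knockout were far above both wild-type ones. C4b, a complement component, was at 1.18, 3.64, 8.44 and 79.1 CPM (3.76 ± 0.42, edgeR adjusted p = 0.00346). It was by far the highest in the labelled knockout D14-58 library, it did not pass without the D14-58 pair (edgeR adjusted p = 0.200), and its close copy C4a makes the assignment of its reads uncertain. The acute phase genes Lrg1 and Hp were also highest in that library. Lrg1 was at 7.29, 13.2, 17.7 and 66.8 CPM (1.82 ± 0.27, edgeR adjusted p = 0.014), and Hp, which encodes haptoglobin, was at 1.77, 1.11, 4.58 and 7.68 CPM (1.98 ± 0.35, edgeR adjusted p = 0.0321). Both lost the call without the D14-58 pair (edgeR adjusted p = 0.28 and 0.267).

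Cspg4, a membrane proteoglycan, was at 1.18, 3.80, 6.58 and 11.1 CPM (1.96 ± 0.30, edgeR adjusted p = 0.019). The basement membrane gene Nid2 was at 3.05, 4.75, 9.02 and 15.5 CPM (1.63 ± 0.29, edgeR adjusted p = 0.0311). Ccbe1, a secreted protein of lymph vessel growth, was at 7.39, 10.8, 22.3 and 17.4 CPM (1.17 ± 0.21, edgeR adjusted p = 0.0321). The groups of these genes did not overlap, but the rise of Ccbe1 was larger in the D14-10 pair, at 1.59 against 0.69. Sorl1, a sorting receptor, rose by 1.79 ± 0.34 and Lmo7, a cell junction protein that lung epithelium also makes, by 2.23 ± 0.33. Id3, an inhibitor of helix-loop-helix factors, was at 4.87, 3.64, 1.12 and 0 CPM (-2.67 ± 0.49, edgeR adjusted p = 0.0388). Id3, like Dnajb1, Angptl4, Tlr13, P2ry13, Klf9, Jun, Btg2, Pim1, Cish, Tec, Tuba1c, Slc11a2, Klhl6 and the predicted genes, were chosen after their values were seen. Sorl1 and Nid2 passed with neither pair alone, Cspg4 and Ccbe1 with the D14-10 pair alone, and Lmo7 with the D14-58 pair alone.

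Receptors of the innate immune system changed in both directions. Il15ra, the chain that presents interleukin 15 to neighbouring cells, was at 8.62, 9.18, 19.8 and 21.5 CPM (1.21 ± 0.17, edgeR adjusted p = 0.00843). It rose by nearly the same amount in each pair, at 1.20 and 1.23. Of 14 genes in the interleukin 15 list it was the 1 that changed with edgeR, where 0.714% of all genes changed. In that list 5 genes had higher and 9 lower values, and 8 had an unadjusted p under 0.05. With DESeq2 2 of them rose and 2 fell. Il15 itself was at 5.91, 5.86, 4.14 and 5.24 CPM, with a difference of -0.34 ± 0.29. Of 22 receptors of myeloid cells with activating or inhibitory tails, 2 rose and 1 fell, where 0.714% of all genes changed. The inhibitory receptor Cd300lf was at 199.2, 181.0, 299.9 and 335.2 CPM (0.74 ± 0.10, edgeR adjusted p = 0.00638), and the collagen receptor Lair1, also inhibitory, was at 72.9, 62.9, 107.1 and 118.8 CPM (0.73 ± 0.13, edgeR adjusted p = 0.0297). Cd300lb, an activating relative of Cd300lf, was at 31.5, 25.4, 17.6 and 12.3 CPM (-0.93 ± 0.15, edgeR adjusted p = 0.0219). Tlr13, a receptor for bacterial ribosomal RNA, was the 1 of 17 genes of Toll-like receptors and their adaptors that rose with edgeR. It was at 73.5, 75.3, 117.7 and 162.9 CPM (0.89 ± 0.11, edgeR adjusted p = 0.00495). With DESeq2 2 of the 17 rose. Gpr141, an orphan receptor, was at 17.4, 25.9, 47.5 and 49.1 CPM (1.19 ± 0.22, edgeR adjusted p = 0.0392), and the purine receptor gene P2ry13 rose by 0.62 ± 0.10. Il15ra, Gpr141 and Cd300lb passed with neither pair alone, and Cd300lf and Lair1 with the D14-58 pair alone.

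A single gene each of the clock and glucocorticoid lists rose with edgeR, where 0.439% of all genes rose, and 3 of each rose with DESeq2. An unadjusted p under 0.05 was reached by 6 of 16 clock and 9 of 15 glucocorticoid-responsive genes, against 1533 of all 12748. Per2, a repressor of the circadian clock, was at 19.8, 27.7, 69.7 and 67.9 CPM (1.56 ± 0.19, edgeR adjusted p = 0.00495) and was the 1 of 16 clock genes that changed. Its relatives Per1, Cry1 and Cry2 had higher values that did not pass, with differences of 0.58 ± 0.13, 0.64 ± 0.16 and 1.04 ± 0.27. The activator Arntl was at 27.8, 21.8, 17.8 and 17.0 CPM (-0.51 ± 0.18, edgeR adjusted p = 0.278), and the list as a whole had 8 higher and 8 lower values. Klf9, a transcription factor induced by glucocorticoids, was at 32.5, 25.7, 62.1 and 69.0 CPM (1.17 ± 0.15, edgeR adjusted p = 0.00601). Of 15 glucocorticoid-responsive genes it was the 1 that passed, 12 had higher values, and the median was 0.31. Fkbp5, a partner of the glucocorticoid receptor, was at 257.1, 312.3, 593.6 and 564.6 CPM (1.03 ± 0.25, edgeR adjusted p = 0.0956). The time of day at which cells were collected was not stated in the sources used.

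Early response and cytokine feedback genes were among those that fell. Of 23 immediate early genes, 2 fell, the AP-1 subunit gene Jun and the antiproliferative gene Btg2, and 0 rose. Over all genes 0.275% fell, and the list had a median of -0.21. Of the 23 genes, 15 had lower and 8 higher values, and 11 had an unadjusted p under 0.05. The AP-1 subunit genes Fos and Fosb had higher values that did not pass (0.28 ± 0.21 and 0.59 ± 0.21, edgeR adjusted p = 0.661 and 0.285). Jun was at 131.2, 103.0, 83.1 and 56.2 CPM (-0.76 ± 0.13, edgeR adjusted p = 0.0297). Btg2 was at 168.0, 139.9, 107.6 and 83.2 CPM (-0.69 ± 0.12, edgeR adjusted p = 0.032). Egr1, by contrast, was at 55.4, 12.6, 15.8 and 9.04 CPM, with the wild-type D14-10 library far above the other three and overlapping groups. The kinase gene Pim1 and the signalling inhibitor gene Cish, both induced through STAT5, fell by 0.79 and 0.82 on the log2 scale (SE 0.13 and 0.14, edgeR adjusted p = 0.0219 and 0.0297). Tec, a kinase of immune receptor signalling, fell by 0.75 (SE 0.13). Of genes that move organelles and membranes, the myosin gene Myo5a was at 96.6, 79.1, 33.7 and 29.0 CPM (-1.48 ± 0.11, edgeR adjusted p = 0.000311) and passed with either pair alone and without the block (edgeR adjusted p = 0.00925). Acap1, which acts on the GTPase Arf6, was at 34.3, 27.0, 15.99 and 10.1 CPM (-1.25 ± 0.18, edgeR adjusted p = 0.0121). Mfsd6, a membrane protein of the transporter superfamily, was at 33.4, 12.6, 5.61 and 2.71 CPM (-2.42 ± 0.30, edgeR adjusted p = 0.00495). Basp1, a membrane-bound signalling protein, fell by 1.48 (SE 0.26), and Slc5a3, a myo-inositol transporter whose gene overlaps Mrps6, by 0.95 (SE 0.18). Mfsd6 passed with the D14-10 pair alone, and Acap1, Basp1 and Slc5a3, like Ppap2b, with neither pair alone.

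The genes of the vitamin D pathway itself held 0 members past the threshold with edgeR, and 1 listed target fell with DESeq2. Of 15 tested VDR targets, 6 had higher and 9 lower values, with a median of -0.09, and 4 had an unadjusted p under 0.05. Cyp24a1 had 0, 0, 2 and 0 counts, which is too shallow to detect a difference. Slc37a2, a sugar phosphate transporter gene, was at 37.5, 20.7, 17.6 and 17.4 CPM, and every library labelled knockout was below the wild-type ones (-0.72 ± 0.18, edgeR adjusted p = 0.095). The list of vitamin D metabolism and receptor complex held 14 tested genes, among them Rxra, a partner of VDR, at 550.7, 469.0, 522.6 and 453.9 CPM, with overlapping groups. Cyp27b1, which makes the hormonal form, had 1, 0, 2 and 4 counts and was too low to be tested. The motif GNTCANNNNGNTCA, a direct repeat with 3 spacer bases of the kind bound by VDR and RXR, was searched on both strands and matched in 0.55% of tested genes' promoters. It matched in 0 of the 35 promoters of genes that rose and 0 of the 26 of genes that fell.

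Other lists held 0 or few calls, where 0.714% of all genes changed. Of 20 NRF2 antioxidant genes 10 had higher and 10 lower values, with 0 past the threshold and a median of 0.00, and 1 had an unadjusted p under 0.05. Of 26 lysosome genes 19 had higher and 7 lower values and 0 passed with either tool, with a median of 0.11 and 2 at an unadjusted p under 0.05. Of 33 cell cycle genes 6 had higher and 27 lower values and 0 passed with either tool or at an unadjusted p under 0.05. Their median was -0.12, made up of 0.11 in the D14-10 pair and -0.33 in the D14-58 pair. Of 16 genes of iron handling 1 rose, Slc11a2, a transporter of divalent metal ions. Of 20 tubulin and motor genes 1 rose, Tuba1c, an alpha-tubulin whose close relatives make the assignment of its reads uncertain, and 1 fell, Myo5a.

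**Figure D4:**
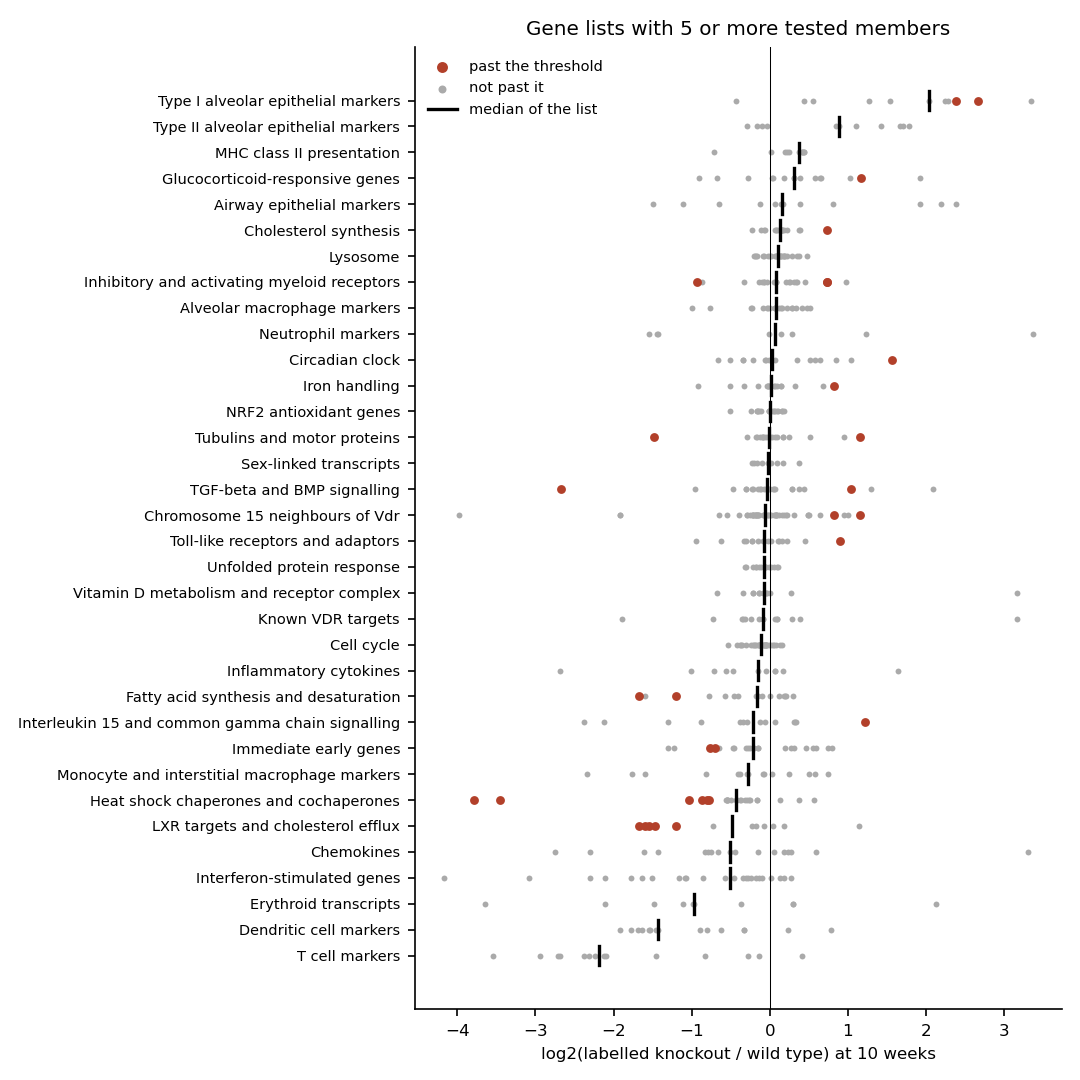
The log2 ratio of labelled knockout to wild type at 10 weeks is shown for every tested member (points, red where past the threshold) of the gene lists with 5 or more tested members, with the median of each list as a black bar. The type I epithelial list has the highest median, 2.04, and the T cell list the lowest, -2.18, with no T cell gene past the threshold.

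Vdr lies on chromosome 15, and its neighbours there were examined because they are inherited with it. Of 100 tested genes within 50 places of Vdr in the order of tested genes on either side, 2 were called, against 6 of all 488 tested genes of chromosome 15. These were Tuba1c, 20 tested genes from Vdr, and Slc11a2, 41 tested genes from it. Tuba1c was at 52.2, 59.3, 127.8 and 119.2 CPM (1.15 ± 0.13, edgeR adjusted p = 0.00342), and Slc11a2 was at 19.2, 18.4, 33.7 and 32.5 CPM (0.82 ± 0.13, edgeR adjusted p = 0.021). Both libraries labelled knockout were above both wild-type ones for each gene, including the D14-10 library whose Vdr level was that of wild type. The part of linked sequence in the result was not tested.

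Among the 91 genes, 5 had the name of a predicted gene or an accession-like name. BC017643, of the accession-like kind, was at 122.8, 118.6, 93.4 and 79.9 CPM (-0.48 ± 0.09, edgeR adjusted p = 0.0422). Gm17757 had 0 and 0 counts in wild type and 770 and 266 counts in the libraries labelled knockout. Gm6682 had 0 and 3 counts in wild type and 412 and 112 in those labelled knockout. Gm14430 was at 10.7, 5.07, 0.634 and 0 CPM, so that it was nearly lost from the libraries labelled knockout. Gm4980 was at 15.8, 17.2, 39.5 and 52.9 CPM and was called also without the block (edgeR adjusted p = 0.00925).

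The same fit gave the genotype difference at 4 weeks, in other libraries, all 4 of which were male by Xist and Ddx3y and of the D14-58 series. There, 282 genes passed (2.21%), 174 higher (1.36%) and 108 lower (0.847%) in the libraries labelled knockout. Of the 91 genes called at 10 weeks, 26 were called at 4 weeks in the same direction, 19 higher and 7 lower, which is 28.6% of the 10-week and 9.22% of the 4-week calls. Both comparisons took the spread from 1 fit. Among the 26 were Lrg1, Cspg4, Il15ra, Tlr13, Tuba1c and Slc11a2, which rose at both ages, and Hspa1a, Hspa1b, Id3, Jun, Btg2 and Pim1, which fell at both. Hspa1b had 4-week levels of 30.6 and 18.7 CPM in wild type against 8.13 and 5.53 CPM, a difference of -1.83 ± 0.26 (edgeR adjusted p = 0.00456). Klhl6, which rose at both ages, had differences of 1.12 at 10 weeks and 1.28 at 4 weeks. Called in opposite directions were Ppap2b and Gm17757.

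The genotype difference itself differed between the ages for 64 of 12748 genes (0.502%), 21 of them higher at 10 than at 4 weeks (0.165%) and 43 lower (0.337%). Of the 91 genes, 21 were among them, 11 that rose at 10 weeks and 10 that fell. Since the same 10-week libraries enter both tests, this count is not independent of the calls. The 4-week libraries were all male and of the D14-58 series, a combination that neither 10-week pair had. Age therefore cannot be told apart from sex and series in this test. Ager had 4-week levels of 3.28 and 3.67 CPM in wild type against 2.71 and 2.38 CPM (-0.45 ± 0.31). Scd1 was at 6.71, 4.44, 5.87 and 7.01 CPM at 4 weeks in the same order of groups, below all 10-week libraries. Myo5a had 4-week levels of 94.7 and 77.3 CPM in wild type against 90.9 and 100 CPM, close to the level of 10-week wild type. Over whole lists, the median of type I epithelial markers was 2.04 at 10 weeks and -0.01 at 4 weeks, and that of the heat shock list -0.43 and -0.03. The NRF2 list showed the opposite order, with 0 of 20 genes called at 10 weeks and 14 that rose at 4 weeks. T cell and dendritic cell markers had negative medians at both ages, with values of -1.10 and -1.14 at 4 weeks.

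**Figure D5:**
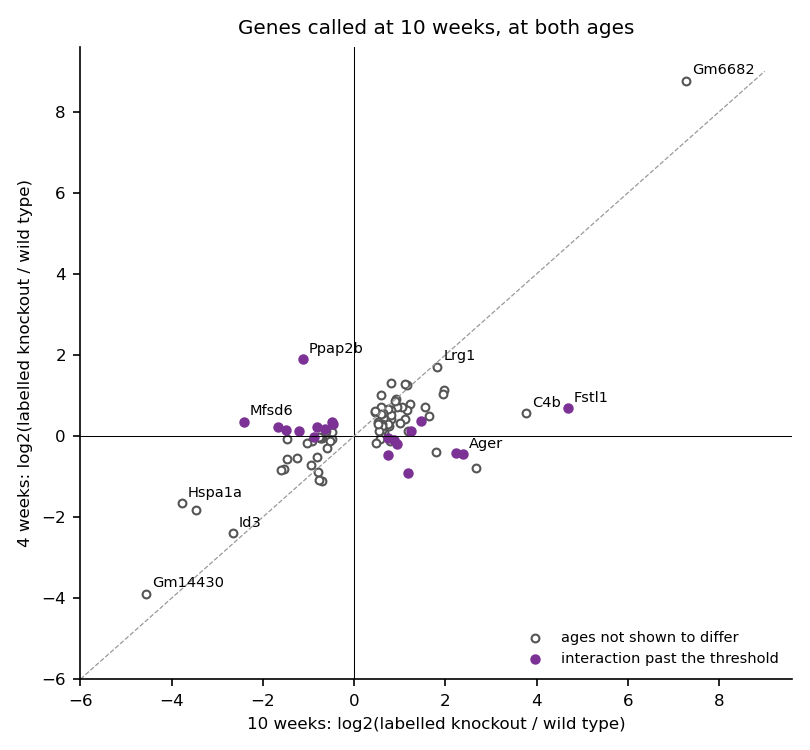
The log2 ratio of labelled knockout to wild type at 10 weeks (x axis) and at 4 weeks (y axis) is shown for the genes called at 10 weeks, filled where the ages differed past the threshold, with a dashed line of equal values; Gm17757 is left out of the plot. Lrg1, Id3 and Gm14430 lie near the line, while Fstl1 (0.68) and Ager (-0.45) lie near 0 at 4 weeks.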

How the data were processed

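RNA-seq of 12 libraries was used, 4 of them for the main comparison. The authors deposited raw counts for 23413 genes, and a log2 table of 10631 genes on the scale log2(CPM + 1), used only to check labels. TopHat2, edgeR and build mm9 are named per the submitters' processing notes. Versions, counting tool, strand setting and annotation: not given in the sources used here. Genes were kept with filterByExpr (minimum count 10, minimum total 15), which left 12748. With edgeR 4.0.16 in R 4.3.3, TMM scaling and the quasi-likelihood F test, all 12 libraries entered 1 fit with 6 group coefficients, 1 title series term for the 10-week libraries and another for the cultured ones (4 residual degrees of freedom). P-values were Benjamini-Hochberg adjusted over all tested genes at a threshold of 0.05. Values within pairs used a prior count of 0.5. Replicate numbers follow the title series, which was the block by rule. Over genes, the pair differences correlated with r = 0.317 and the deviations of same-numbered libraries with r = 0.0925, a description across genes, which are not independent. Named genes were Vdr, Cyp24a1, up to 15 called genes per direction with the largest difference, the same sign in both pairs and at least 5 CPM in the higher group, without predicted genes, then the 4 smallest p of each list with at least 3 calls or a median of 0.5 or more in size, and for each cell type list its 3 top markers by level. A few results are not reported here. Other genes named were chosen after their values were seen. The 38 gene lists, the members and the rule were chosen with earlier results of these data known. Alternatives were no block, a shared series term, DESeq2 1.42.0, other scaling and filters, fewer libraries and grouping by description code. Promoters are RefSeq GRCm38.p6 and matched 9456 of 12748 tested genes. Depth was 10409572 to 23233674 counts per library.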

Additional observations from a re-analysis of the deposited data

Results flagged for a closer look

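Among the genes named, 14 are singled out because the difference between labelled knockout and wild type differed between 10 and 4 weeks by edgeR's interaction test. That test cannot tell age apart from sex and title series. The values that follow are the 10-week minus the 4-week difference on the log2 scale. Higher at 10 weeks were Fstl1 (4.01), Ager (2.83), Lmo7 (2.64), Gpr141 (2.10), Tppp3 (1.50), Lair1 (1.20) and Hpgds (1.12). Lower at 10 weeks were Ppap2b (-3.03), Mfsd6 (-2.78), Scd1 (-1.90), Myo5a (-1.64), Scd2 (-1.32), Chordc1 (-1.03) and Dnaja1 (-0.84). Tppp3 was not called at 10 weeks, and its 4-week levels were 121 and 92.5 CPM in wild type against 37.4 and 47.4 CPM. Ppap2b was called in both directions, lower at 10 weeks and higher at 4 weeks, with 4-week levels of 7.96 and 6.47 CPM in wild type against 25.6 and 27.6 CPM. Mfsd6 and Scd1 were low in all 4 libraries at 4 weeks, at 0.917 to 1.54 CPM and 4.44 to 7.01 CPM.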

How the results depend on the processing

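At 10 weeks, 91 genes changed. The count was 14 with no replicate block (14 of them among the 91), 52 with 1 series term shared by all libraries, 237 with DESeq2 (89 of the 91), 675 with no filter on low counts, 40 with only the 4 libraries at 10 weeks, and 6 with groups by description code and no block (0 of the 91). Leaving out a library without the block gave 1 to 71, among them 5 without the labelled knockout D14-58 library, and single pairs with the block gave 45 and 122. At 4 weeks, where 282 changed, the count was 85 with no block, 162 with the shared term, 948 with no filter and 42 with the description codes, and 66, 67, 110 and 107 with each 10-week library left out in turn without the block. For the interaction (64), it was 24 with no block, 40 with the shared term, 143 with DESeq2, 545 with no filter and 12 with the description codes, 6, 6, 13 and 15 with each 10-week library left out without the block, and 38 for the D14-10 and 96 for the D14-58 pair with the block. With DESeq2 4 immediate early genes fell, and 3 glucocorticoid-responsive and 3 clock genes rose. DESeq2 size factors and a strict filter kept the 10-week count within 1.5 times. Vdr passed at 10 weeks with no filter on low counts (-0.68 ± 0.12, edgeR adjusted p = 2.37e-06), where the main fit gave -0.68 ± 0.30. Only the SE was smaller in that fit, and the Vdr levels of the groups overlapped. In no other fit with both pairs did Vdr pass. Its difference was 0.08 with the D14-10 pair alone and -1.49 with the D14-58 pair alone. Grouping by description code puts 1 library of each genotype label on each side and makes genotype equal to series, so it could not be fitted with the block. It turned the differences of Clic5 (-0.22), Lmo7 (-0.17), Ccbe1 (-0.085), Klf9 (-0.0019), Tuba1c (-0.015), Slc11a2 (-0.061), P2ry13 (-0.051), Gpcpd1 (-0.19), Relt (-0.12), Ms4a6c (-0.36), Kdm6b (-0.21), Gm6682 (-0.98) and Gm17757 (-0.66), and those of Basp1 (0.14), Apoe (1.07), Scd2 (0.15), Ppap2b (0.032) and Angptl4 (0.082). Of the 34 named genes past the threshold, 10 passed in all 7 other fits with the block and both pairs, 16 in that on the 4 libraries at 10 weeks alone, and with no block 6 did: Ager, Il15ra, Arl4c, Myo5a, Scd2 and Cd300lf. Genes under about 1 CPM rest on few counts, which limits what could be detected.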
